A study of Mus musculus with 4 samples.

Results

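Reln, Gh, Prm1 and Prg3 are best known outside B cells, and mouse studies have described Klhl14 in B-cell development. These 5 genes were among the largest differences between 2 sorted fractions of mouse bone marrow cells. They were chosen on those measured differences, so the differences themselves are given as a description with no test. Each gene was matched by its identifier in the deposited signal table, ignoring case. The 5 genes stand among 18138 gene identifiers, and each was read by 1 of 25697 probes. The study profiled mice lacking Btg1 and Btg2 (Btg1;Btg2 dKO, here dKO) and wild-type (WT) mice, all labelled with the strain C57BL6/J. Marrow from tibia and femur was sorted by the B-lineage marker B220 and by CD43 into B220+ CD43- cells, which run through Hardy fractions D, E and F by the labels, and B220+ CD43+ cells, which cover fractions A, B and C. By those labels the CD43+ cells are the earlier precursors up to the pro-B stage, and the CD43- cells are pre-B cells and their progeny. Most detected NK-cell, T-cell and plasmacytoid dendritic cell marker genes were also brighter in the CD43+ than in the CD43- samples, as counted below. The 4 groups were dKO CD43-, WT CD43-, dKO CD43+ and WT CD43+ cells, with 1 Illumina MouseRef-8 array each. The number of animals behind each RNA, their age and the way the alleles were made are unstated in the labels.

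Reelin, encoded by Reln, is a large secreted glycoprotein that guides neuronal migration by binding the receptors encoded by Vldlr and Lrp8 and triggering phosphorylation of the adaptor Dab1. Growth hormone, encoded by Gh, is a pituitary hormone that acts through the receptor Ghr, the kinase Jak2 and the STAT5 factors. Protamine 1, encoded by Prm1, is a small basic protein that takes the place of histones in sperm chromatin. Prg3 encodes a homologue of the eosinophil granule major basic protein, the product of the neighbouring gene Prg2. Klhl14 belongs to the Kelch-like family, whose proteins commonly bring substrates to the CUL3 ubiquitin ligase, and mouse studies have described it in B-cell development. CD43- marrow B cells have passed the pro-B stage, rearrange immunoglobulin light chains and take on the surface receptors of mature B cells.

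Between 39.5% and 43.3% of probes were detected on an array, and the typical probe was read from 38 or 39 beads. A probe counted as detected when its detection p was under 0.01, and the dimmest detected probes had signals of 165 to 181. Of the targeted genes, Btg1 had signals of 8115 and 19425 in dKO and WT CD43- cells, and of 3459 and 8610 in dKO and WT CD43+ cells, while Btg2 was not detected on any array. Where the probes lie relative to the deleted parts is not known here, so these signals do not check the genotype. Ptprc, whose product includes the B220 form, and Cd79b were detected on all 4 arrays. Spn, which encodes CD43, was detected in both CD43+ samples and in neither CD43- sample, but all its signals lay near the dimmest detected probes. They were 180 and 165 in dKO and WT CD43+ cells, and 157 and 149 in dKO and WT CD43- cells. Values this close to background give no difference, so they do not check the sort. With 1 array a group no difference between 2 arrays has a replicate check, and the bead SE given beside a value covers the measurement on the chip only. Fewer cells of a type and less RNA per cell cannot be told apart in such bulk samples.

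The fraction comparison asked which RNAs differ between the CD43- and the CD43+ sorted cells. All 5 genes were brighter in CD43- than in CD43+ cells in both genotypes. After background correction and normalization the differences of the genes detected in both fractions were 4.15 and 4.19 on the log2 scale in dKO (Reln and Prg3) and between 3.83 and 4.55 in WT (all but Gh), and the others are lower bounds of 3.57 to 4.21. At a threshold of 2-fold, 5 of 5 genes were higher in each genotype, where the same held for 6.06% of 8495 tested genes in dKO and 7.85% of 8539 in WT. Because these contrasts chose the genes, nothing is read from these counts.

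**Figure D1:**
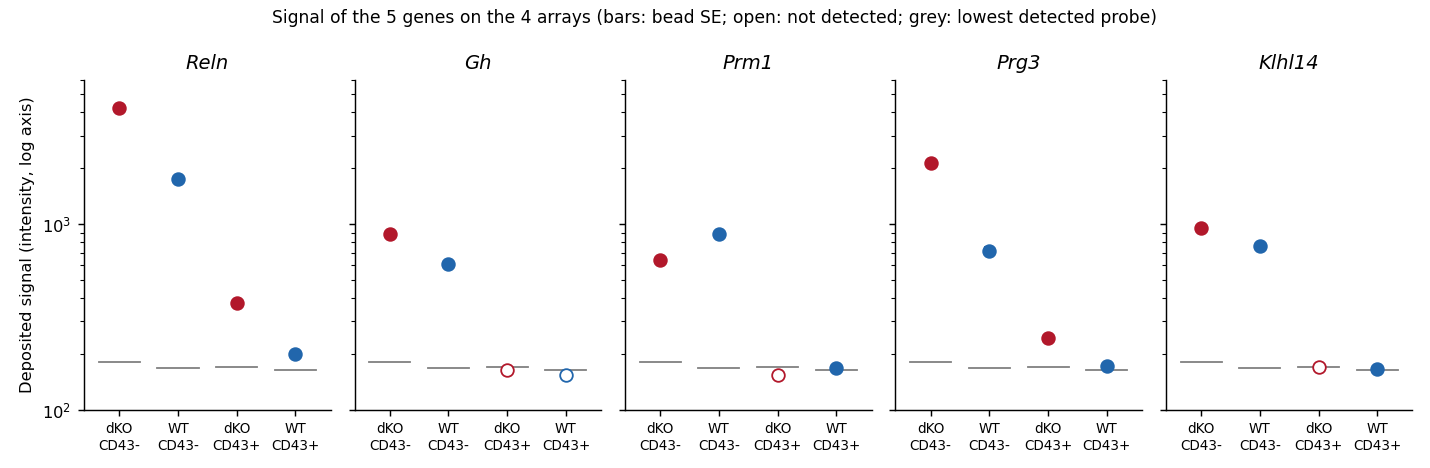
Deposited signal (intensity, log axis) of Reln, Gh, Prm1, Prg3 and Klhl14 on the dKO CD43-, WT CD43-, dKO CD43+ and WT CD43+ arrays; bars are the bead SE, mostly smaller than the points, open points were not detected, and grey lines mark the dimmest detected probe of each array. CD43- signals lie between 611 and 4239 and CD43+ signals between 154 and 375, many of them near the grey lines.

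Among the secreted ligands, Reln had signals of 4239 ± 122 (bead SE) in dKO CD43- and 1754 ± 52.7 in WT CD43- cells, against 375 ± 15.1 in dKO CD43+ and 200 ± 8.37 in WT CD43+ cells. It was detected on all 4 arrays, and every step of that order lay beyond its 95% bead interval (normal, from the bead SE). The normalized level in dKO was 17.7-fold higher in CD43- cells (log2 4.15, bead SE 0.088) and 23.5-fold higher in WT (4.55, bead SE 0.176). The ratios of the deposited signals, which still hold the background, were 11.3 in dKO and 8.78 in WT.

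Gh, the other ligand, had signals of 882 ± 29.8 in dKO CD43- and 611 ± 20.8 in WT CD43- cells, against 164 ± 6.70 in dKO CD43+ and 154 ± 5.87 in WT CD43+ cells. Both CD43+ values were not above background (detection p of 0.0288 in dKO and 0.0764 in WT), so they have no order, and the fold is a bound taken against the dimmest detected probe of the CD43+ array or the gene's own value, whichever was higher. Its level in dKO was higher in CD43- cells, by at least 17.2-fold, and at least 13.9-fold higher in WT.

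Prm1, the sperm chromatin protein gene, had signals of 642 ± 23.9 in dKO CD43- and 882 ± 32.0 in WT CD43- cells, against 154 ± 6.55 in dKO CD43+ and 168 ± 6.59 in WT CD43+ cells. It is the only one of the 5 genes that was brightest in WT CD43- cells. Its level in dKO was higher in CD43- cells, by at least 11.8-fold, where the CD43+ array did not detect it, and 19.5-fold higher in WT (log2 4.28, bead SE 0.234).

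Prg3, the granule protein gene, had signals of 2143 ± 81.4 in dKO CD43- and 718 ± 32.2 in WT CD43- cells, against 244 ± 10.1 in dKO CD43+ and 171 ± 7.69 in WT CD43+ cells. It had the same order of arrays as Reln, with each step beyond the 95% bead interval. The CD43- level was 18.3-fold higher than the CD43+ level in dKO (log2 4.19, bead SE 0.138) and 14.2-fold higher in WT (3.83, bead SE 0.264).

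Klhl14, the ubiquitin ligase adaptor gene, had signals of 953 ± 31.5 in dKO CD43- and 760 ± 31.2 in WT CD43- cells, against 169 ± 5.99 in dKO CD43+ and 165 ± 7.20 in WT CD43+ cells. The 2 CD43+ values straddled the detection threshold, with a detection p of 0.0113 in dKO and 0.00877 in WT, and neither they nor the 2 CD43- values differed between genotypes beyond the 95% bead interval after normalization. Its level in dKO was higher in CD43- cells, by at least 18.5-fold, and 17.7-fold higher in WT (log2 4.15, bead SE 0.262).

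The size of these folds rests on how the background is removed, since most CD43+ signals of the 5 genes lie near the dimmest detected probes. Among genes detected in both fractions, the log2 differences without background correction were 3.50 for Reln and 3.09 for Prg3 in dKO, and lay between 2.20 and 3.26 in WT. In the authors' RMA values those of the same genes were 4.24 and 4.46 in dKO and between 4.51 and 5.05 in WT. Under each of the 6 alternatives run, the measured differences of all 5 genes stayed past 2-fold in both genotypes.

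**Figure D2:**
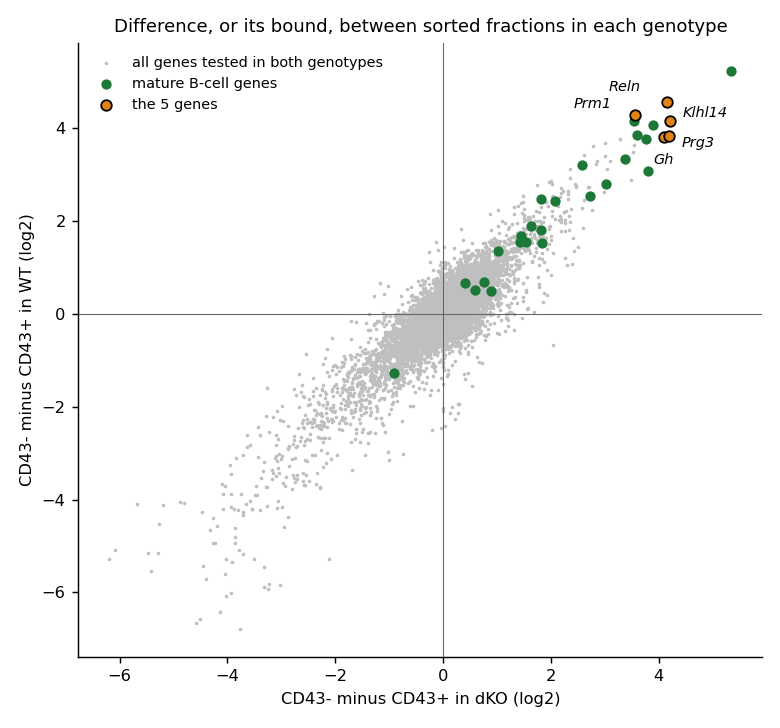
Difference between CD43- and CD43+ cells (log2), or its bound where 1 fraction was not above background, in dKO on the x axis and in WT on the y axis, for 8072 genes tested in both genotypes (grey), mature B-cell genes (green) and Reln, Gh, Prm1, Prg3 and Klhl14 (orange). The 5 genes, chosen for this, lie at the upper right end, and Gh in both genotypes and Prm1 and Klhl14 in dKO are at their bounds.

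Promoters of 3 of the genes, from RefSeq on GRCm38.p6, are given so that the start regions of genes with a like fraction difference can be compared. Sequences were at hand for Reln, Prm1 and Prg3, read on each gene's own strand from 250 bases before to 50 bases after the annotated start, 5′ to 3′. Capitals mark matches to the motifs searched.
Reln, chr5:22344656-22344955, minus strand: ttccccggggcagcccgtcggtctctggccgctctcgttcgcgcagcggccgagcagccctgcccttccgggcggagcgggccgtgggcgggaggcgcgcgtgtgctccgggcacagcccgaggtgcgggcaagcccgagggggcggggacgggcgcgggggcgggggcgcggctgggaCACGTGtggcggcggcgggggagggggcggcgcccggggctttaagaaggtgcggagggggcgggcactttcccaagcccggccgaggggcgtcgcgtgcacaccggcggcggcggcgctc
Prm1, chr16:10796774-10797073, minus strand: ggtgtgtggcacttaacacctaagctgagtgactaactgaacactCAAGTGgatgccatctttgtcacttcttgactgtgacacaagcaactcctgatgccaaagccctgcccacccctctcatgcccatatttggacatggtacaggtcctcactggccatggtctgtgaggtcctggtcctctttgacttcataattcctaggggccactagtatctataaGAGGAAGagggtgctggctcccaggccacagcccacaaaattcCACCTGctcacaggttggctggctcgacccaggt
Prg3, chr2:84987965-84988264, plus strand: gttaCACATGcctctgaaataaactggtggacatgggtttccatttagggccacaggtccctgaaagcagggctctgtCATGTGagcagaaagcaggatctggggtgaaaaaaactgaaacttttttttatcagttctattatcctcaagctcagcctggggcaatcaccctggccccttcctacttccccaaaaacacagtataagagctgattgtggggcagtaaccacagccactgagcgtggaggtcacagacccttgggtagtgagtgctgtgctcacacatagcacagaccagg
The Reln window is 80.7% G and C and holds 47 CpG dinucleotides, whereas the Prm1 and Prg3 windows are 52.7% and 49.7% G and C and hold 1 CpG each. The medians over 32817 RefSeq promoter windows of the same length are 52.7% and 7 CpG. Both strands were searched for the E-box CANNTG, which reads alike on both strands, the octamer ATTTGCAT, the TATA box (TATAAA), the cyclic AMP response element TGACGTCA and GAGGAAG, bound by ETS factors. The E-box, the motif of E proteins such as Tcf3, occurs once in the Reln window (at -71 from the start), at -205 and 17 in that of Prm1 and at -246 and -172 in that of Prg3, and 72.3% of all windows hold it. GAGGAAG occurs at -27 in the Prm1 window, and 13.6% of windows hold it. The letters of the octamer (1.74% of windows), TATAAA (13.6%) and TGACGTCA (1.79%) are in none of the 3 windows.

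The 3 genes most like each member over the 4 arrays were listed by the root mean square difference between levels centred on each gene's own mean, against 8961 other detected genes, whose median distance to a member was 2.08 to 2.25 on the log2 scale. The contrast that chose the members makes up most of this distance, so that members lie near each other and near other genes high in CD43- cells is set by the choice. Reln and Prg3, each detected on all 4 arrays, were each other's nearest gene at 0.26. Next to Prg3 came the chemokine receptor gene Ccr6 (0.49) and Il2ra, a chain of the interleukin-2 receptor (0.50), and next to Reln came Gh (0.51) and Cnr2, the cannabinoid receptor of lymphocytes (0.55). The distances of Gh, Klhl14 and Prm1 rest in part on CD43+ levels not above background, so the order among them is not read. The genes listed for Gh were Klhl14, Cnr2 and Cd55, a complement regulator, those for Klhl14 were Gh, Cd40, the receptor for T-cell help, and Cd55, and those for Prm1 were Cd40, Ms4a1, encoding CD20, and Klhl14.

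The other genes of the pathways and families that the 5 genes belong to were counted at 2-fold, with a gene not above background in 1 fraction taken at its bound. Counted so, 5.39% of all tested genes in dKO and 6.25% in WT were higher in CD43- cells, and 8.04% in dKO and 8.55% in WT were lower. With exact values in place of bounds the lower shares were 10.6% in dKO and 11.2% in WT. Of the reelin pathway, 15 of 20 genes on the array were tested in dKO and 13 in WT, with 2 past 2-fold upward, Reln included, and 1 past 2-fold downward in CD43- cells in each genotype. The list's median was 0.00 in dKO and 0.26 in WT on the log2 scale, beside 0.05 and 0.06 over all tested genes. Medians of the pathway and family lists include the chosen gene. The receptor gene Vldlr and the adaptor gene Dab1 were not detected on any array, and Lrp8 was detected in dKO CD43+ cells only, with a signal of 191. Beside Reln, the higher gene was Cdk5r1, encoding an activator of the kinase CDK5, at 2.27 in dKO and 1.79 in WT. Fyn, a Src-family kinase, was lower by 2.57 in dKO and 3.15 in WT.

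In the growth hormone and prolactin axis, 13 of 20 genes were not detected on any array, among them the receptor gene Ghr, the pituitary transcription factor gene Pou1f1 and Prl. Of all 17916 genes, 8962 were detected on at least 1 array, which is the background for such counts here and below. Gh was the 1 gene at least 2-fold higher in CD43- cells among 7 tested in dKO and 6 tested in WT, while 1 was at least 2-fold lower in dKO and 2 in WT. The median was -0.60 in dKO and -0.44 in WT. Cish, a feedback inhibitor of cytokine signalling, was at -1.63 in dKO and -1.09 in WT, and Socs2, which restrains growth hormone signalling, was at -0.45 in dKO and -1.60 in WT.

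Of the genes of protamines and spermatid chromatin, 17 of 22 on the array were not detected on any array, among them Prm3, Tnp1, Tnp2 and Akap4. Prm2 was not matched to a probe by name. Prm1 was the 1 gene at least 2-fold higher in CD43- cells among 5 tested in dKO and 4 tested in WT. Spaca1, a sperm acrosome gene, had signals of 187 and 157 in CD43- and CD43+ dKO cells and of 176 and 143 in CD43- and CD43+ WT cells, with bounds of 0.50 in dKO and 0.54 in WT. Odf2 was at 0.90 in dKO and 0.39 in WT, and Crem at -0.11 and 0.52. H1f7, detected in dKO CD43+ cells only, gave no fold. The median over these few tested genes, Prm1 included, was 0.87 in dKO and 0.89 in WT (0.50 and 0.53 with bounds). Over all tested genes it was 0.05 in dKO and 0.06 in WT.

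Of 7 eosinophil genes tested in dKO, 2 passed 2-fold upward, Prg3 included, and 1 downward in CD43- cells, and of 9 tested in WT, 2 passed upward and 3 downward. Medians were 0.62 in dKO and -1.12 in WT (-0.96 with bounds). The largest difference in size was that of Csf2rb2, a receptor chain for interleukin-3 in mice, at -4.19 in dKO and at -4.57 or below in WT. Ear2, an eosinophil-associated ribonuclease gene, was at -0.04 or below in dKO and -2.47 or below in WT. The list's other higher gene was Il5ra, a receptor chain for interleukin-5, at 1.20 or more in dKO and 1.18 or more in WT. Prg2, the paralogue beside Prg3, had signals of 324 in dKO CD43- and 228 in WT CD43- cells, against 369 in dKO CD43+ and 360 in WT CD43+ cells. Its fraction difference was -0.15 (bead SE 0.092) in dKO and -1.12 (bead SE 0.133) in WT, opposite in sign to that of Prg3. Whether the Prg3 probe also binds related transcripts was not tested.

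The Kelch-like list held 22 tested genes in each genotype. In dKO 3 passed 2-fold upward in CD43- cells, Klhl14 included, in WT 1 did, Klhl14 itself, and 0 passed downward in either. Medians were 0.11 in dKO and 0.20 in WT. Klhl24 was at 1.22 in dKO and 0.58 in WT, and Klhl12 at 1.06 or more in dKO and 0.84 in WT. Klhl30, with signals near background, was lower by 0.37 or more in dKO and by 0.24 or more in WT. Klhl6, a B-cell member of the family, was at 0.54 in dKO and 0.57 in WT, and Cul3, the ligase scaffold, at 0.12 in dKO and 0.19 in WT.

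**Figure D3:**
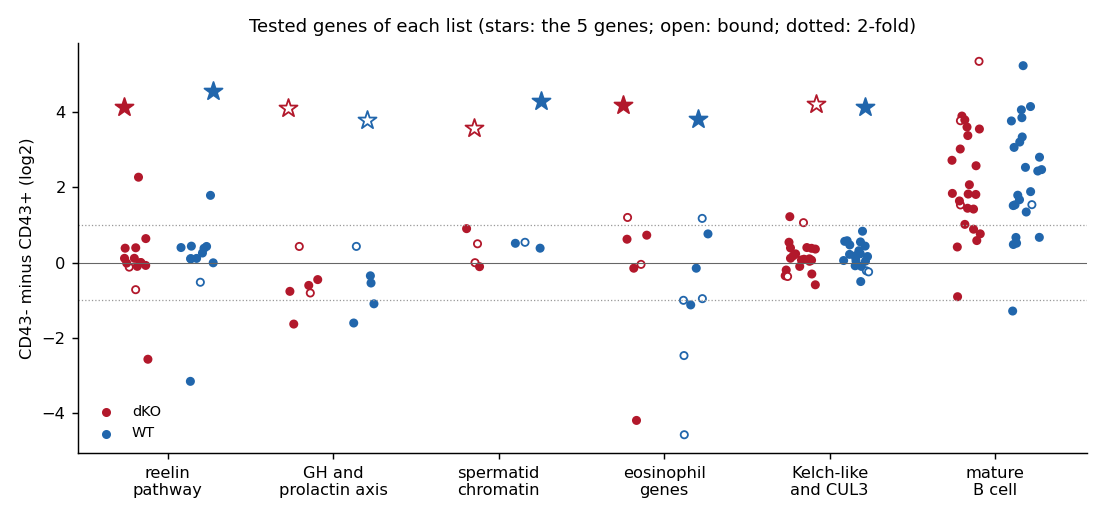
Difference between CD43- and CD43+ cells (log2), or its bound (open symbols), in dKO (left, red) and WT (right, blue) for the tested genes of 6 lists; stars are Reln, Gh, Prm1, Prg3 and Klhl14, and dotted lines mark 2-fold. The stars were chosen for their height, and 19 of 24 mature B-cell genes are past 2-fold in each genotype.

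The mature B-cell list behaved otherwise, with 19 of 24 tested genes past 2-fold upward in CD43- cells in dKO and 19 of 24 in WT. Its median was 1.96 in dKO and 2.45 in WT (1.83 and 2.16 with bounds). Fcer2a, the low-affinity IgE receptor gene, was at 5.35 or more in dKO and 5.23 in WT, Cd40 at 3.90 and 4.06, Ms4a1 at 3.77 or more and 3.77, and Cnr2 at 3.55 and 4.15. The differences of Reln and Prg3 lie within the range of this list, whose highest gene was Fcer2a in each genotype. That list, like the other lists, was chosen with earlier results of these data known.

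Markers of the cell types in which Reln, Gh, Prm1 and Prg3 are best known were detected to an unequal extent. Among all 17916 genes, 8962 were detected on at least 1 array. Of 11 male germ-cell markers on the array, 0 were detected on any of the 4 arrays. Of 11 pituitary markers, 1 was detected, Lhx3 in WT CD43+ cells, and Pomc, Prl, Tshb, Lhb and Cga were at background throughout. Of 11 neuron markers, Map2 and Gad1 were detected and Tubb3, Syn1, Snap25 and Stmn2 were not. Gad1, encoding a GABA-synthesizing enzyme, was higher in CD43- cells by at least 2.51 in dKO and 1.44 in WT, and Map2, a microtubule protein gene, by 1.93 in dKO and 1.40 in WT. Of 6 eosinophil markers, 2 were detected on each array: Prg2 on all 4, Ear2 on the CD43+ arrays and Il5ra on the CD43- arrays. Epx, Ear6 and Ccr3 were detected on none. Their summed normalized level, which includes the markers not detected, was 399 in dKO CD43- and 325 in WT CD43- cells, against 368 in dKO CD43+ and 640.1 in WT CD43+ cells. The part of eosinophils in the Prg3 signal was not tested.

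Some sets of markers of other marrow cells also moved with the fractions, and other sets were mixed. Erythroid markers were at least 2-fold higher in CD43- cells for 6 of 6 tested genes in dKO and 5 of 6 in WT, beside 6.06% and 7.85% of all tested genes. Their summed level was 24913 in dKO CD43- and 27438 in WT CD43- cells, against 7318 in dKO CD43+ and 12778 in WT CD43+ cells. With genes not above background taken at their bound, 8 of 9 tested NK-cell markers in dKO and 7 of 9 in WT were at least 2-fold lower in CD43- cells. So were 6 of 7 T-cell markers in dKO and 7 of 7 in WT, and 7 of 9 plasmacytoid dendritic cell markers in each genotype. Counted so, 8.04% of all tested genes in dKO and 8.55% in WT were lower, and 5.39% and 6.25% were higher. Neutrophil markers had 1 of 9 higher and 0 lower in dKO, and 0 of 9 higher and 6 lower in WT. Monocyte and macrophage markers had 2 of 8 higher and 3 lower in dKO, and 1 of 6 higher and 4 lower in WT. Among these, C1qb was higher by 1.37 in dKO and by at least 1.95 in WT, and Lyz2 lower by 1.01 and 3.15. Plasma-cell markers had 1 of 6 higher and 1 lower in dKO, and 1 of 6 higher and 2 lower in WT. The part of these cells in the differences of the 5 genes was not tested.

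Measured genes on either side of the 5 genes were examined in chromosome order, 3 on each side, and they differed from locus to locus. Gh lies on chromosome 11 beside Cd79b, which encodes a signalling chain of the B-cell receptor. Cd79b was higher in CD43- cells by 1.42 (bead SE 0.106) in dKO and 1.54 (bead SE 0.093) in WT. The next genes on that side were also higher: the muscle sodium channel gene Scn4a by at least 0.67 in dKO and 0.99 in WT, and Icam2, an adhesion molecule gene, by 1.22 in dKO and 1.34 in WT. On the other side of Gh, Tcam1 was not detected, Smarcd2 was at 0.33 in dKO and 0.43 in WT, and Psmc5 at -0.09 in dKO and -0.21 in WT.

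Beside Prg3 on chromosome 2, P2rx3, an ATP-gated channel gene of sensory neurons, was higher in CD43- cells by at least 2.59 in dKO and by 1.85 (bead SE 0.263) in WT. Signals of P2rx3 were 387 in dKO CD43- and 250 in WT CD43- cells, against 168 in dKO CD43+ and 165 in WT CD43+ cells. Prg2, on the other side, went the opposite way, and Slc43a3 and Rtn4rl2 beyond it were not detected. Around Prm1 on chromosome 16, the protamine cluster genes Prm3 and Tnp2 were not detected. Socs1, a cytokine signalling inhibitor gene past that cluster, was higher by at least 0.64 in dKO and 0.77 in WT. On the other side, Litaf was at -0.44 in dKO and -0.46 in WT, Snn at 0.49 and 0.83, and Txndc11 at 0.92 and 1.02. The neighbours of Reln on chromosome 5 lay between -0.57 and 0.21 in dKO and between -0.19 and 0.61 in WT, and Slc26a5 was not detected. Of the neighbours of Klhl14 on chromosome 18, Rnf138 was the 1 detected gene of 6, at -0.13 in dKO and 0.67 in WT.

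**Figure D4:**
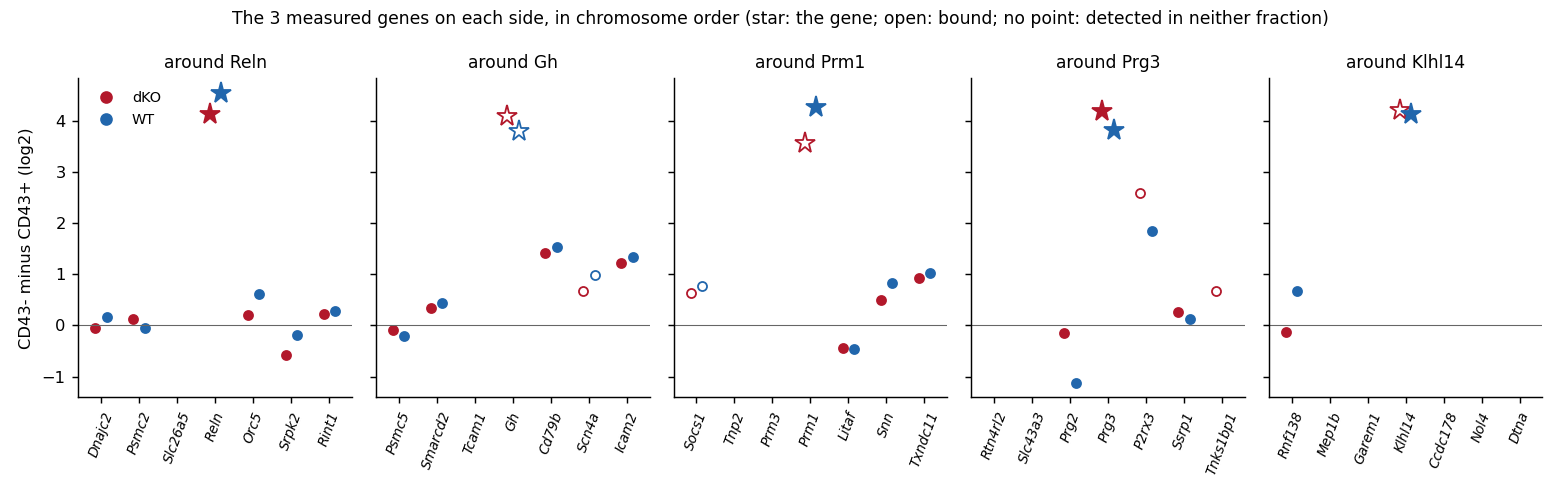
Difference between CD43- and CD43+ cells (log2), or its bound (open symbols), in dKO (red) and WT (blue) for the 3 measured genes on each side of Reln, Gh, Prm1, Prg3 and Klhl14, in chromosome order; stars are the 5 genes, and genes detected in neither fraction have no point. Cd79b and Icam2 near Gh, P2rx3 beside Prg3 and, in WT, Txndc11 near Prm1 lie above 1, and the detected neighbours of Reln and Klhl14 lie below 1.

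The genotype comparison set dKO against WT cells within each fraction, and the choice of the 5 genes did not use it, although it reads the same 4 arrays. Reln and Prg3 were brighter in dKO in both fractions, Prm1 was dimmer in dKO in both, and Gh and Klhl14 differed less. In CD43- cells, Prg3 was 2.65-fold higher in dKO (log2 1.41, bead SE 0.101) and Reln 1.99-fold higher (0.99, bead SE 0.056). Prm1 was lower in dKO there, by 1.83-fold (-0.87, bead SE 0.087), and the differences of Gh (0.27, bead SE 0.077) and Klhl14 (0.01, bead SE 0.089) were smaller. In CD43+ cells, Reln was 2.64-fold higher in dKO (1.40, bead SE 0.189) and Prg3 2.06-fold higher (1.04, bead SE 0.280). Prm1, detected in WT CD43+ cells only, was lower by at least 0.15 in dKO. Klhl14 was likewise detected in WT only and had a bound of -0.05, and Gh was detected in neither, so it has no fold there.

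Counted at 2-fold in either direction, 1 of 5 members, Prg3, differed in CD43- cells, where 6.24% of 7944 tested genes did, and 2 of 4 tested members, Reln and Prg3, in CD43+ cells, where 3.74% of 8631 did. Counted upward alone, the background was 3.65% in CD43- and 1.74% in CD43+ cells. In CD43- cells 290 genes were at least 2-fold higher and 206 lower in dKO, against 472 and 93 with median scaling, and in CD43+ cells 150 higher and 173 lower, against 400 and 118. Median scaling moved the median of all tested genes to 0.25 in CD43- and 0.32 in CD43+ cells. Relative to those medians, in CD43- and then CD43+ cells, Reln was at 1.0 and 1.29, and Prg3 at 1.43 and 0.91, and in CD43- cells Prm1 was at -0.90, Gh at 0.30 and Klhl14 at 0.04.

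The genotype difference was tested over 8962 genes by limma with a fraction block and Benjamini-Hochberg adjustment, with 2 arrays a side and 1 residual degree of freedom. Unequal genotype effects in the 2 fractions count as noise there, and whether both fractions were sorted from the same mice is unstated. Of the 5 genes, 0 passed an adjusted p of 0.05, where 0.0223% of all genes did. At an unadjusted p under 0.05 the fit called Reln, Prm1 and Prg3, beside 17.8% of all genes. The difference of Prg3 was 1.23 (95% interval 0.76 to 1.69, limma adjusted p = 0.169), higher in dKO in 2 of 2 fractions. That of Reln was 1.20 (0.72 to 1.68, limma adjusted p = 0.169), also higher in 2 of 2. Prm1 was at -0.74 (-1.18 to -0.30, limma adjusted p = 0.193), lower in 2 of 2. The fit used the measured CD43+ values of Prm1, Gh and Klhl14, of which those of Gh and the dKO values of Prm1 and Klhl14 were not above background. Intervals for Gh (-0.19 to 0.64, limma adjusted p = 0.489) and Klhl14 (-0.46 to 0.37, limma adjusted p = 0.903) included 0. The adjusted p of Reln and Prg3 depends on the offset added to dim signals, at 0.0241 and 0.0425 with an offset of 50 in place of 16 and at 0.00824 and 0.0406 without background correction. On data simulated from the WT arrays the fit recovered the direction of 200 of 200 probes changed 4-fold and called 0 of them at an adjusted p of 0.05. The changed probes were drawn from those brighter, on both WT arrays, than any CD43+ signal of the 5 genes. Probes as dim in WT CD43+ cells as these 5 genes were thus not among those changed.

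**Figure D5:**
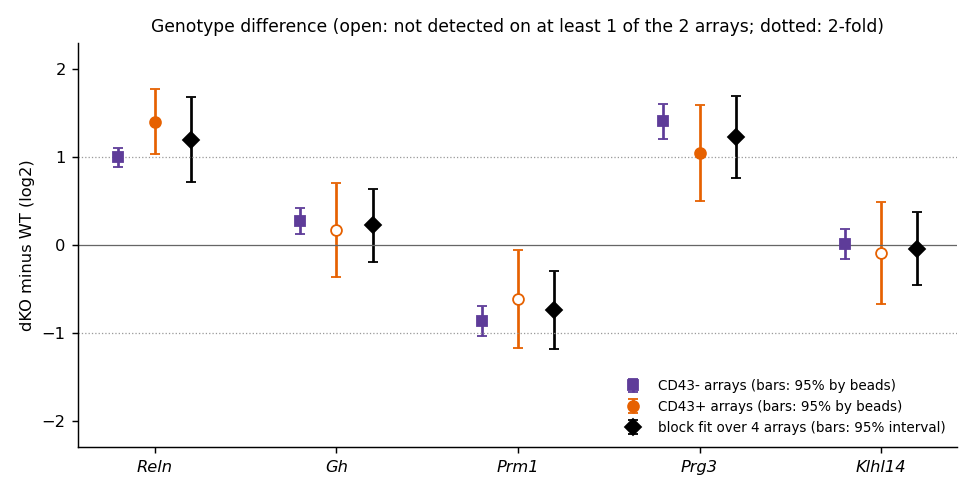
Difference between dKO and WT (log2) for Reln, Gh, Prm1, Prg3 and Klhl14 on the CD43- arrays (squares) and the CD43+ arrays (circles), with bars of the 95% bead interval, and in the block fit over 4 arrays (diamonds), with 95% intervals; open symbols were not detected on at least 1 of the 2 arrays. Reln and Prg3 lie above 0 and Prm1 below 0 in both fractions, and the intervals of Gh and Klhl14 in the block fit include 0.

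The fraction difference itself was set against genotype, as dKO minus WT. It was -0.40 for Reln (bead interval -0.79 to -0.02) and 0.36 for Prg3 (-0.22 to 0.95), the 2 genes detected on all 4 arrays. In the authors' RMA values Reln was at -0.67 and Prg3 at -0.05. With 1 array a group these have no test beyond the beads. No such value is given for Prm1, Gh and Klhl14, which were not above background on at least 1 CD43+ array.

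Other differences between the genotypes stood beside these values. The dKO arrays were brighter before normalization, with mean signals of 648 in dKO and 555 in WT CD43- cells and of 662 in dKO and 551 in WT CD43+ cells. In CD43- cells 4 of 8 tested plasmacytoid dendritic cell markers were at least 2-fold higher in dKO, where 3.65% of all tested genes were. Those 4 were Siglech at 2.95, Klk1 at 2.42, Cox6a2 at 1.51 and Pacsin1 at 1.44. The summed level of the whole list was 25512 in dKO and 19943 in WT. Its brightest gene there was Ly6d, with signals of 17336 in dKO and 14860 in WT and a normalized difference of 0.08. In CD43+ cells 7 of 9 neutrophil markers were at least 2-fold lower in dKO, where 2% of all tested genes were, with a summed level of 7077 in dKO and 33008 in WT. The median difference of mature B-cell genes was -0.11 in CD43- and -0.04 in CD43+ cells, with 2 of 24 and 0 of 23 at least 2-fold lower in dKO and none higher. Of all tested genes, 2.59% in CD43- and 2% in CD43+ cells were at least 2-fold lower. The part of any of these in the values of Reln, Prg3 and Prm1 was not tested. None of the 5 genes lies on chromosome 10 or chromosome 1, which carry Btg1 and Btg2.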

How the data were processed

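Total RNA was labelled as biotinylated cRNA and hybridised to Illumina MouseRef-8 arrays, 1 for each of 4 groups. The deposited table holds, per the file headers, mean bead intensity per probe without background subtraction, the SD of the beads, the count of beads and a detection score, a fraction that rises with the signal and whose complement was taken as detection p. The bead SE is that SD over the square root of the bead count. A second deposited table holds the authors' log2 RMA values per gene, which served as an alternative, with RMA settings not given in the sources used here. In all, 16 per-sample columns were not used, among them linear ratios. The series' value table equalled the RMA values for 18119 of 18119 matched identifiers, with column medians of 3.77, 3.77, 3.79 and 3.78 (dKO CD43-, WT CD43-, dKO CD43+, WT CD43+).

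Intensities were corrected by normexp with negative control information inferred from detection p, offset 16, quantile-normalized and log2-transformed (neqc, limma 3.58.1). A gene was read by its brightest probe over the 4 arrays, and names were updated through RefSeq, with 14300 identifiers matched by symbol, 2885 by synonym and 953 kept, giving 17916 genes. A gene was tested where at least 1 array of the pair detected it (detection p under 0.01). With 1 array a group, fraction and genotype differences carry bead errors only. The limma block fit is the 1 test, and it had 1 residual degree of freedom. It was tested on 14771 simulated probes, where 200 of 200 probes changed 4-fold were past 2-fold and 2 unchanged probes were too. The changed probes were drawn from those brighter, on both WT arrays, than any CD43+ signal of the members. Named genes were the members, the 3 genes most alike per member, the 3 measured genes on each side, up to 4 detected genes per list with the largest fraction difference, and defining markers at background. Other list genes were named after their values were seen. Members and lists were chosen with earlier results of these data known. Alternatives were no background correction, an offset of 50, median scaling, the authors' RMA values, a detection p of 0.05 and the mean of all probes of a gene. The number of arrays limits the precision.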

Additional observations from a re-analysis of the deposited data

How the results depend on the processing

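The measured differences of all 5 genes stayed past 2-fold upward in CD43- cells in both genotypes under the 6 alternatives. Of the genotype counts, 2 genes at least 2-fold different in CD43+ cells became 0 without background correction and 1 with an offset of 50, and 1 in CD43- cells became 2 with median scaling, which moved the median of all genes to 0.25 there and to 0.32 in CD43+ cells. The limma count of 0 became 2, Reln and Prg3, without background correction (adjusted p = 0.00824 at 0.82 and 0.0406 at 0.81) and with an offset of 50 (0.0241 at 1.04 and 0.0425 at 1.03). Over all alternatives the adjusted p ranged from 0.00824 to 0.327 for Reln and from 0.0406 to 0.327 for Prg3. Klhl14 turned to 0.13 in that fit with median scaling, against -0.04, a change smaller than that shift. Over all genes, the fit called 2 genes, against 228 higher and 235 lower without background correction, 85 and 104 with an offset of 50 and 0 in the RMA values, where 1257 had an unadjusted p under 0.05. Genes at least 2-fold higher and lower in CD43- cells numbered 515 and 901 in dKO and 670 and 954 in WT, against 207 and 389 in dKO and 247 and 425 in WT without background correction. An offset of 50 gave 335 and 625 in dKO and 388 and 668 in WT. Between dKO and WT, no background correction gave 50 higher and 34 lower in CD43- and 11 and 38 in CD43+ cells, and an offset of 50 gave 116 and 60 in CD43- and 39 and 77 in CD43+ cells. RMA values gave 387 and 328 in CD43- and 380 and 354 in CD43+ cells. Median scaling raised the share of higher calls to 83.5% in CD43- cells, against 58.5%, and to 77.2% in CD43+ cells, against 46.4%. The cause of these shifts was not tested. No paired analysis was possible because each group has 1 array and the labels give no replicate numbers (the limma fit pairs the genotypes only by fraction), and no replicate could be left out. Signals near background limit Gh, Prm1 and Klhl14 in CD43+ cells to bounds or wide errors.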
